A study of Mus musculus with 12 samples.

Results

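A set of 1691 accessible chromatin domains was absent from embryoid bodies and from motor neuron progenitors. It was present in every group of mouse cells at day 4 of differentiation towards motor neurons. Members were taken from the list of domains of the day 4 cells that received no doxycycline (no Dox). A domain was a member if it was 150 bp or wider, lay on chromosomes 1 to 19, X or Y, was overlapped by no domain of the embryoid body (EB) list or the progenitor list, and was overlapped by at least 1 bp of a domain in each of the iHoxc6, iHoxc9 and iHoxc10 lists. The no Dox list held 45088 domains of that width, so 3.75% of them were members. Over all 6 lists 482514 domains were given. Members were thus selected on their overlaps and their no Dox width, which are described below without a test.

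The 12 samples were mouse embryonic stem cells grown as EBs and steered towards spinal motor neurons by retinoic acid (RA) at 1 µM together with SAG, an agonist of Hedgehog signalling, at 0.5 µM. EBs before patterning and progenitors at day 2 came from the parental line Ainv15(iCre). The iHoxc6, iHoxc9 and iHoxc10 cells came from Ainv15(iFlag.Hoxc6), Ainv15(iFlag.Hoxc9) and Ainv15(iFlag.Hoxc10), in each of which a single transgene copy with an amino-terminal Flag tag stands under a doxycycline-controlled promoter at the HPRT locus, and they received RA, SAG and doxycycline (Dox, 3 µg/mL, the last 48 h) until day 4. The no Dox cells were the Ainv15(iFlag.Hoxc6) line with RA and SAG and without Dox at day 4, and their samples were added to the series later than the others. The authors describe the culture 48 h after Dox addition as mainly postmitotic motor neurons together with interneurons. Each line is isogenic and each group had 2 samples. One list was deposited per group, made from both of its samples, so no value per sample and no spread between samples could be had, and read depth is unknown. No day 4 group came from the parental line, so differentiation from day 2 to day 4 and the change of line cannot be told apart in the choice of members.

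ATAC-seq marks DNA that the Tn5 transposase can reach, which is largely DNA free of nucleosomes at promoters and enhancers. As progenitors leave the cell cycle and become neurons, proneural basic helix-loop-helix (bHLH) factors such as the NEUROG proteins bind E-boxes. EBF, ONECUT and LIM homeodomain factors follow in early motor neurons. Some SOX factors, SOX2 among them, are most typical of dividing neural progenitors, while Sox4 is counted here among the neuronal transcription factor genes. Hox proteins set the position of motor neurons along the body axis: HOXC6 is expressed at limb level, HOXC9 at thoracic level and HOXC10 at lumbar level. HOXC6 belongs to the central Hox group, while HOXC9 and HOXC10 belong to the posterior group, whose members also accept a TTTATG core.

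The following sequences show what such domains look like near genes that direct motor neuron and neuronal fate. Members of such genes were ranked by their width in their narrowest day 4 list, but not every such gene was entered. For the 8 genes that ranked first among those entered, the central 150 bp of the member was read on the plus strand of GRCm38. A neuronal transcription factor gene that was left out had 493 bp there, above Lhx3, Mecom, Zfhx3 and Sox4. The 8 are thus not the widest of all such genes. The window of Myt1 lay in an untranslated region and is not printed, and 1 more of the 8 is not reported here. Capitals mark a match on either strand to one of 6 strings: CAGCTG and CAGATG (a palindromic E-box and the E-box form of NEUROG-type factors), ATTGATT (ONECUT), CCCNNGGGA (EBF), TAATGA (central Hox) and TTTATG (posterior Hox).
Pou3f3, chr1:42472729-42472878: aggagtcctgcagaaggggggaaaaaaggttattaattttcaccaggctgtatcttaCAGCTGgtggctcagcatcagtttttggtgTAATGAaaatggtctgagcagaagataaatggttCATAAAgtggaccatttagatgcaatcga
Isl1, chr13:115948455-115948604: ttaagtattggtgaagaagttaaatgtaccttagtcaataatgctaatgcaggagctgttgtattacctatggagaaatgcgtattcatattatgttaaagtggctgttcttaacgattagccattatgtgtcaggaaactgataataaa
Lhx3, chr2:26175437-26175586: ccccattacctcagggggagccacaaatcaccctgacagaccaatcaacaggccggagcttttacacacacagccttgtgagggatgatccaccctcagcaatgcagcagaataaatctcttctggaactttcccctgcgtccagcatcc
Mecom, chr3:30299833-30299982: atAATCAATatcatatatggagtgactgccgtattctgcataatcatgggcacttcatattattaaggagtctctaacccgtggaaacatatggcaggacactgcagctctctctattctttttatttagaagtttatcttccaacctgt
Zfhx3, chr8:108264864-108265013: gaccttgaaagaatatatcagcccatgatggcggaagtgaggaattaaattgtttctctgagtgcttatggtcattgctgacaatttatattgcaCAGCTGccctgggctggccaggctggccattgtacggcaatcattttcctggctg
Sox4, chr13:28664666-28664815: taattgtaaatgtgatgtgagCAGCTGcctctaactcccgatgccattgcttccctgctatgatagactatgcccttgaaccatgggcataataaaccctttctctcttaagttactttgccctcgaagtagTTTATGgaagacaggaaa
Of these 6 windows, 4 held at least 1 match and 2 held none. The Pou3f3 and Sox4 windows each held CAGCTG and TTTATG, and that of Pou3f3 also held TAATGA. A match says only that the letters are present in the window, and the lack of a match says nothing of whether a factor bound there.

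Most domains that appeared in no Dox after day 2 were not found in all 3 induced lists. Of the 45088 no Dox domains, 37706 overlapped an EB or a progenitor domain and 7382 were new. The iHoxc6 list held, that is overlapped by at least 1 bp, 4397 of the new domains (59.6%, 95% Wilson interval 58.4 to 60.7), the iHoxc10 list held 3105 (42.1%, 40.9 to 43.2) and the iHoxc9 list held 2665 (36.1%, 35.0 to 37.2). All 3 lists together held the 1691 members, 22.9% of the new domains (21.96 to 23.9). These intervals and all others below cover the counting of domains only, not the spread between samples. Domains that overlapped an EB or a progenitor domain were held by all 3 induced lists far more often, in 27256 of 37706 cases (72.3%, 71.8 to 72.7). The 2 sets are unlike in position. A transcription start site lay within 1 kb of 31.7% of all no Dox domains. Among new domains it did for 2.66% of members, 5.08% of those in 1 or 2 induced lists and 9.29% of those in none. This contrast was not split by position or width. The iHoxc6 list holds more domains in all (91181) than the iHoxc9 (63504) and iHoxc10 (56232) lists, and it comes from the same line as no Dox, so list size and line cannot be told apart from the order of the 3 lists. Of the new domains that were not members, 2186 were in no induced list, 1331 in iHoxc6 alone, 330 in iHoxc10 alone and 255 in iHoxc9 alone, while 870 were in iHoxc6 and iHoxc10, 505 in iHoxc6 and iHoxc9, and 214 in iHoxc9 and iHoxc10. Width went with sharing. Of new domains from 150 to below 200 bp wide 11.7% were members, and of those 500 bp or wider 54.7% were. A wider domain meets an overlap of 1 bp more easily, so the rule itself favours wide domains.

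**Figure D1:**
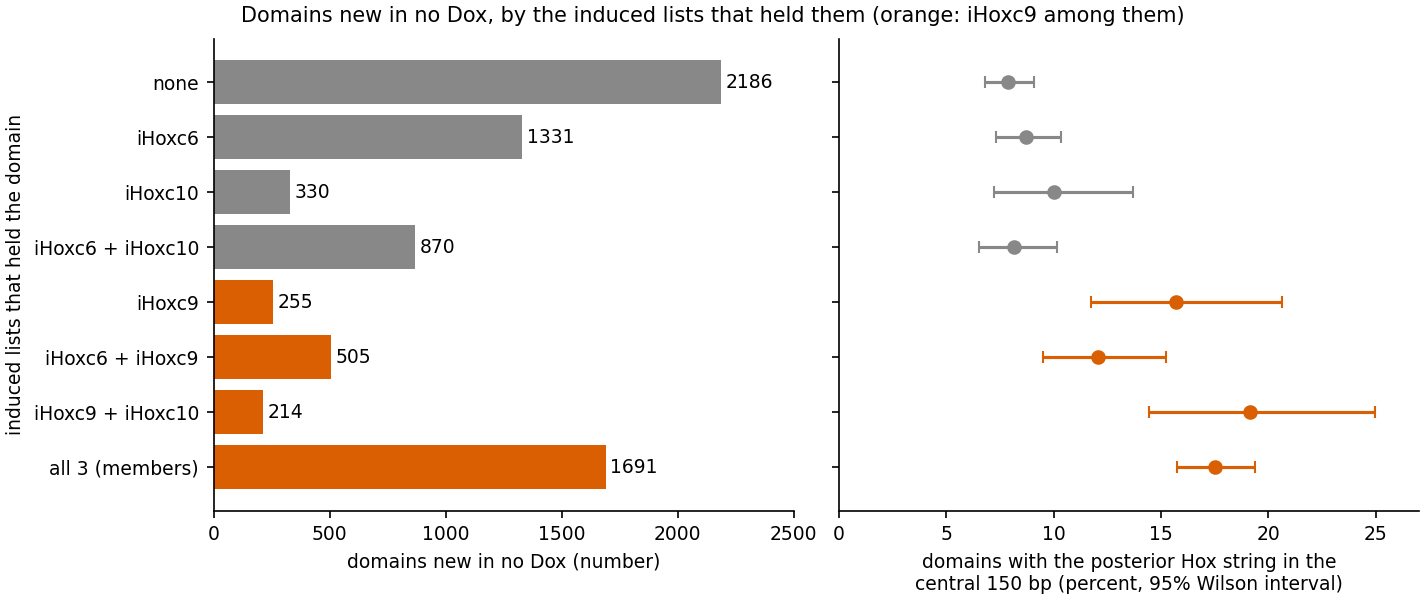
Left, number of domains new in no Dox (150 bp or wider) by which of the 3 induced lists held them, with the members at the bottom. Right, percent of each class with the posterior Hox string TTTATG in the central 150 bp, with 95% Wilson intervals. Classes held by iHoxc9 (orange) ranged from 12.1% to 19.2%, and the other classes (grey) from 7.87% to 10.0%.

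The sequence at the centre of members differed in neuronal and Hox strings from that of the other no Dox domains taken as a whole. The rule for members used no sequence, but it required an iHoxc9 domain, and the posterior Hox string was more frequent in new domains held by iHoxc9, as described further on. Because members were mostly far from genes, they were set against the other 29134 no Dox domains that lay over 1 kb from a transcription start site (TSS), and the difference of shares is given with its 95% Newcombe interval. The posterior Hox string TTTATG lay in the central 150 bp of 296 members (17.5%, 15.8 to 19.4) against 7.91% of the others, a difference of 9.60 percentage points (7.83 to 11.5). CAGCTG was present in 377 members (22.3%) against 14.99%, a difference of 7.31 points (5.34 to 9.39). CAGATG was present in 388 members (22.9%) against 16.3%, a difference of 6.60 points (4.61 to 8.71).

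Strings of factors that act in young neurons were also more frequent in members. ATTGATT, the ONECUT string, was present in 153 members (9.05%, 7.77 to 10.5) against 3.49% of the other domains over 1 kb from a TSS. CCCNNGGGA, the EBF string, was present in 114 members (6.74%, 5.64 to 8.04) against 3.04%. The central Hox string TAATGA was present in 293 members (17.3%) against 10.8%, and AGGTCA, a site shared by nuclear receptors, the retinoic acid receptors included, in 18.4% against 12.7%. The LIM homeodomain core TAATTA was present in 7.57% against 5.16%. The intervals of all these differences lay above 0. Of 20 strings searched, 12 had an interval above 0, 4 below 0 and 4 spanned it. The other 4 of the 12 were as follows. The bipartite PBX and Hox string TGATTNAT, which can share bases with the ONECUT string, was present in 7.87% of members against 4.49%. The MEIS string TGACAG was present in 15.7% against 13.9%. The AP-1 string TGANTCA was present in 6.27% against 4.84%, and the second ONECUT string ATCGAT in 1.06% against 0.59%. Fewer strings stood apart from the 2186 new domains in no induced list, with 9 intervals above 0, 1 below 0 and 10 that spanned it. TTTATG (difference 9.64 points, 7.52 to 11.8), CAGCTG (7.38, 4.91 to 9.88), CAGATG (5.10, 2.55 to 7.68), TAATGA (5.89, 3.66 to 8.16), ATTGATT (4.20, 2.59 to 5.88) and CCCNNGGGA (3.59, 2.21 to 5.04) were among the 9. The interval of TAATTA spanned 0 there (0.62, -1.02 to 2.30), and its share in new domains held by 1 or 2 induced lists was 8.62%, so this string was not particular to members. The intervals of the MEIS, AP-1 and second ONECUT strings also spanned 0. In new domains held by 1 or 2 induced lists CAGATG had 21.3%, CAGCTG 18.6% and TAATGA 15.9%. TTTATG had 10.3%, ATTGATT 6.62% and CCCNNGGGA 3.79%. Single classes reached the members' share: CAGATG 24.5% and TAATGA 17.5% in iHoxc6 alone. CAGCTG had 23.8% in iHoxc6 and iHoxc9, and ATTGATT 9.54% in iHoxc6 and iHoxc10. TTTATG had 19.2% in iHoxc9 and iHoxc10. These strings were not particular to members, and CCCNNGGGA stayed at 5.15% or less.

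In the opposite direction, members had fewer SOX strings than the other domains over 1 kb from a TSS as a whole. ACAANG was present in 510 members (30.2%, 28.0 to 32.4) against 37.2% of the other domains over 1 kb from a TSS, a difference of -7.00 points (-9.21 to -4.70). The contrast was larger against domains that had opened earlier, between EB and day 2. Of the 5466 no Dox domains absent from EB, present in progenitors and held by all 3 induced lists, 46.6% had ACAANG, and the difference from members was -16.5 points (-18.99 to -13.9). In windows 5 kb to either side of members ACAANG was present in 29.5% (27.9 to 31.0), so its share inside members was close to that of their surroundings. The other new domains were also low in ACAANG, with 31.6% in those of no induced list (difference -1.45 points, -4.37 to 1.49) and 33.4% in those of 1 or 2 lists, as were domains held by all 6 lists over 1 kb from a TSS (29.7%), so the low share was not particular to members. GGAATG (TEAD), GGGCGG (the GC box of promoters) and CCANNAGNG (part of the CTCF consensus) also had intervals below 0 against the other domains over 1 kb from a TSS, and of these only that of GGAATG lay below 0 against new domains in no induced list.

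**Figure D2:**
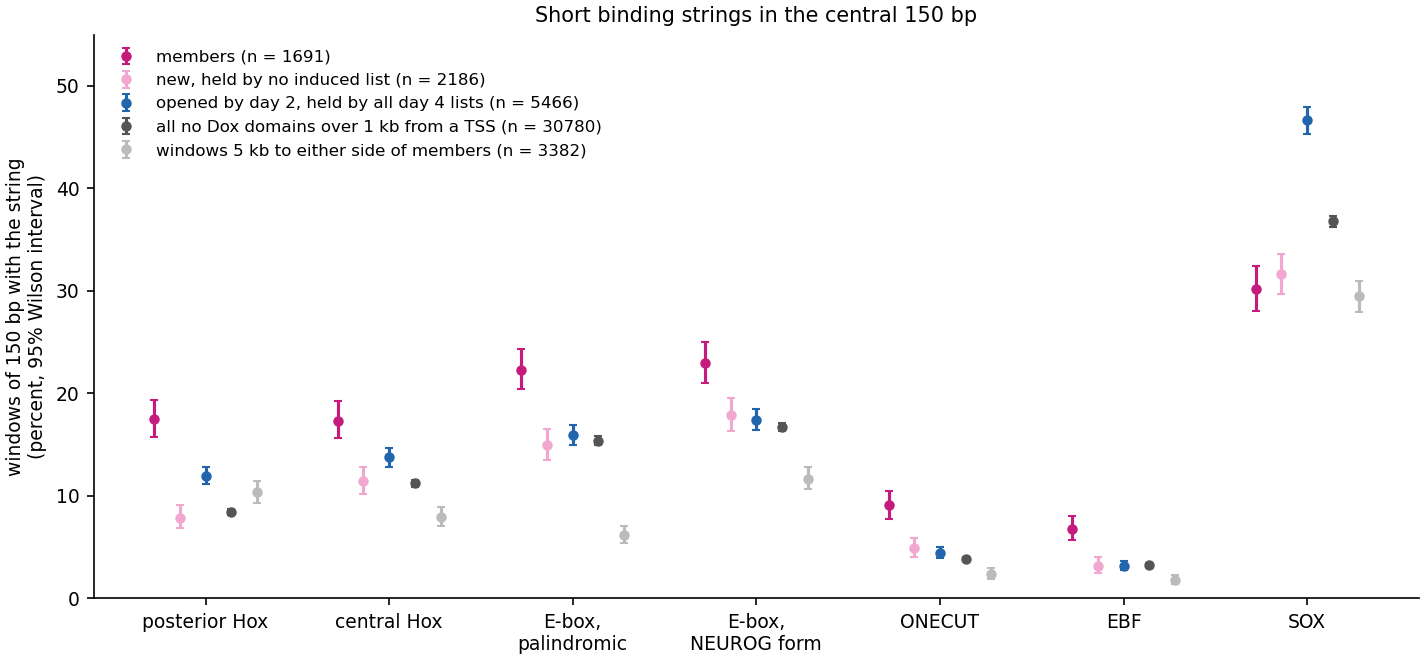
Percent of 150 bp windows with each string, by set of domains, with 95% Wilson intervals. In members the Hox, E-box, ONECUT and EBF strings lay above the 4 other sets, and the SOX string lay below the domains opened by day 2 (46.6%) and close to the windows 5 kb away (29.5%).

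Members and the domains opened by day 2 had the same median GC content, 46.7% of the central 150 bp, against 48.7% in all no Dox domains over 1 kb from a TSS. When the other domains over 1 kb from a TSS were weighted to the GC content of members, the share with TTTATG was 9.04%, with ATTGATT 4.10%, with CAGCTG 14.03% and with CCCNNGGGA 2.55%, all below the members' shares, and ACAANG reached 39.3%, above it. Of members 1.12% (0.72 to 1.75) lay mostly in annotated repeats, against 6.50% (5.54 to 7.61) of the new domains in no induced list.

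Hox and ONECUT strings were more frequent at the centre of members than 500 to 550 bp to the left of it. That outer bin lay outside most members, whose median width in no Dox was 327 bp. In the 50 bp to the left of the centre, TTTATG was present in 7.10% of members (5.97 to 8.42) and 2.84% of the other domains over 1 kb from a TSS, whereas 500 to 550 bp to the left the shares were 4.32% and 3.97%. In the other domains the share was therefore lower in the central bin than in the outer bin, and in members it was higher. The TTTATG shares of members were uneven, with 4.73% in the bin centred at -75 bp and 5.56% in that at 375 bp. ACAANG was present in 15.2% of the other domains in the same central bin and 10.6% in the outer bin. In members it was 11.1% (9.65 to 12.6) and 13.0% (11.5 to 14.7), intervals that overlap. ATTGATT was present in 3.84% of members in that central bin and 0.77% in the outer bin. At least 2 of the 6 capitalised strings were present in 418 members (24.7%, 22.7 to 26.8) and in 10.1% of the other domains over 1 kb from a TSS, and 568 members (33.6%) had none.

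**Figure D3:**
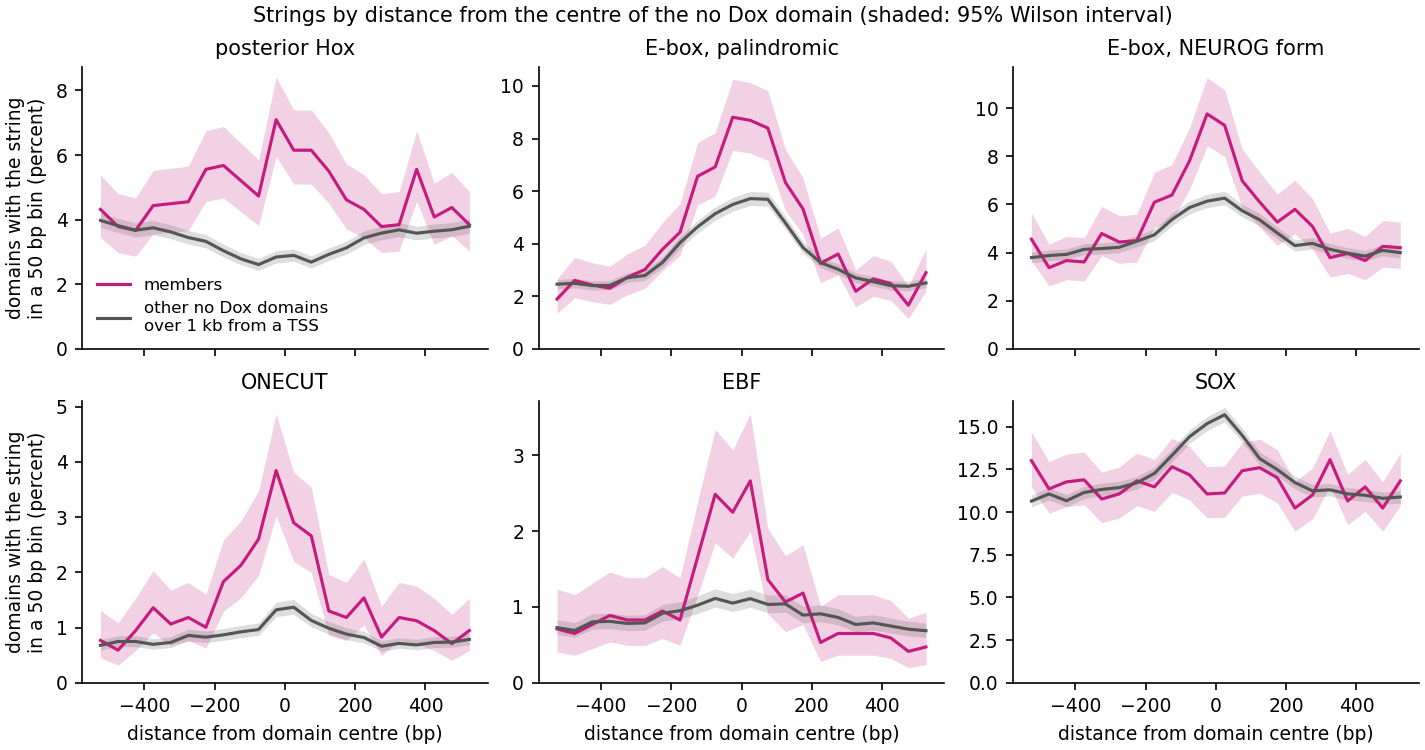
Percent of domains with each string in bins of 50 bp, by distance from the centre of the no Dox domain. Shading gives 95% Wilson intervals. In members (pink) 5 strings rise towards the centre, while the SOX string is flat in members and peaks in the other no Dox domains over 1 kb from a TSS (grey).

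The posterior Hox string followed the iHoxc9 list more than the iHoxc6 list. Among the 7382 domains new in no Dox, TTTATG was present in 16.4% of those held by iHoxc9 and 8.31% of those not held, a difference of 8.12 points (6.54 to 9.76). For iHoxc10 the shares were 14.2% and 9.10%, a difference of 5.11 points (3.62 to 6.62). For iHoxc6 they were 12.4% and 9.58%, a difference of 2.79 points (1.34 to 4.21). The intervals of iHoxc9 and iHoxc6 did not overlap, although the 3 comparisons share domains, the members among them. The central Hox string TAATGA had the opposite order, with 4.57 points (2.94 to 6.16) for iHoxc6 and 2.38 points for both iHoxc9 (0.68 to 4.12) and iHoxc10 (0.73 to 4.06), and these intervals overlapped. Domains held by iHoxc9 were more often 300 bp or wider in no Dox (1277 of 2665, against 1233 of 4717 not held). By no Dox width, the difference in TTTATG was 5.75 points (2.82 to 9.08) from 150 to below 200 bp. It was 8.85 points (6.09 to 11.8) from 200 to below 300 bp and 9.05 points (5.98 to 12.2) from 300 to below 500 bp. At 500 bp or wider it was 6.51 points (1.28 to 11.3). The part of width, depth or calling in this difference was not tested. The same string separated the domains that opened by day 2. It was present in 12.1% of those held by iHoxc9 and 6.67% of those not held (difference 5.42 points, 4.36 to 6.46). For iHoxc10 the shares were 11.0% and 7.27% (difference 3.76 points, 2.66 to 4.82), and this interval overlapped that of iHoxc9. For iHoxc6 they were 9.78% and 9.80% (difference -0.03 points, -1.75 to 1.51). The members are the domains held by all 3 lists, so their 17.5% includes this difference between lists.

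Members were narrower in the induced lists than in no Dox, where the rule set the minimum of 150 bp. Whether the no Dox domains were called in the same way as the others is not known, and this cannot be told apart from a difference in width. The median width was 327 bp in no Dox, 280 bp in iHoxc10, 278 bp in iHoxc6 and 220 bp in iHoxc9. The widths in iHoxc9 reached down to 16 bp, and 265 members (15.7%) were under 50 bp there, against 138 in iHoxc6 and 88 in iHoxc10. The median ratio of iHoxc9 to no Dox width was 0.624 in members and 0.547 in domains opened by day 2 and held by all day 4 lists. It was 0.614 in domains held by all 6 lists over 1 kb from a TSS. In the same order the ratios were 0.806, 0.875 and 0.849 for iHoxc6 and 0.826, 0.731 and 0.709 for iHoxc10. The narrowing was thus not particular to members. Only 811 of the 1691 members were 150 bp or wider in all 4 day 4 lists, and 227 were 300 bp or wider in all of them. The label of a domain open in every day 4 group therefore rests, for the other members, on a narrow overlap in at least 1 induced list.

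The widths of members with the posterior Hox string differed from those without it. Of the 296 members with TTTATG, 42.2% (36.7 to 47.9) were wider in iHoxc9 than in no Dox, against 25.2% (23.0 to 27.6) of the 1395 without it, a difference of 17.0 points (11.0 to 23.1). The median width in iHoxc9 was 291 bp with the string and 207 bp without, while in no Dox it was 326.5 bp and 327 bp. In iHoxc10 the difference in the share that was wider was 6.46 points (0.49 to 12.6), and in iHoxc6 it was 2.65 points (-3.08 to 8.71). The share that was wider than in no Dox also differed with other strings, in another order. With TAATGA the share that was wider differed by 11.7 points (5.72 to 17.9) in iHoxc6 and 0.97 points (-4.49 to 6.87) in iHoxc9, with 6.11 points (0.13 to 12.3) in iHoxc10. With CAGCTG it differed by 7.04 points (1.66 to 12.6) in iHoxc6, and with ACAANG by 5.09 points (0.42 to 9.92) in iHoxc9, so TTTATG was not the only string that went with wider iHoxc9 domains. With CCCNNGGGA it differed by 15.6 points (6.42 to 25.0) in iHoxc6, 10.9 points (1.82 to 20.4) in iHoxc10 and 8.32 points (-0.21 to 17.7) in iHoxc9. Members with CCCNNGGGA were narrower in no Dox, with a median of 266 bp against 335 bp without it. In the induced lists the medians were close: 284 and 278 bp in iHoxc6, 282.5 and 280 bp in iHoxc10, 221 and 220 bp in iHoxc9. For CAGCTG they were 304 and 338.5 bp in no Dox and 279 and 278 bp in iHoxc6. Whether iHoxc9 and iHoxc6 differed from each other within the EBF string was not tested.

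**Figure D4:**
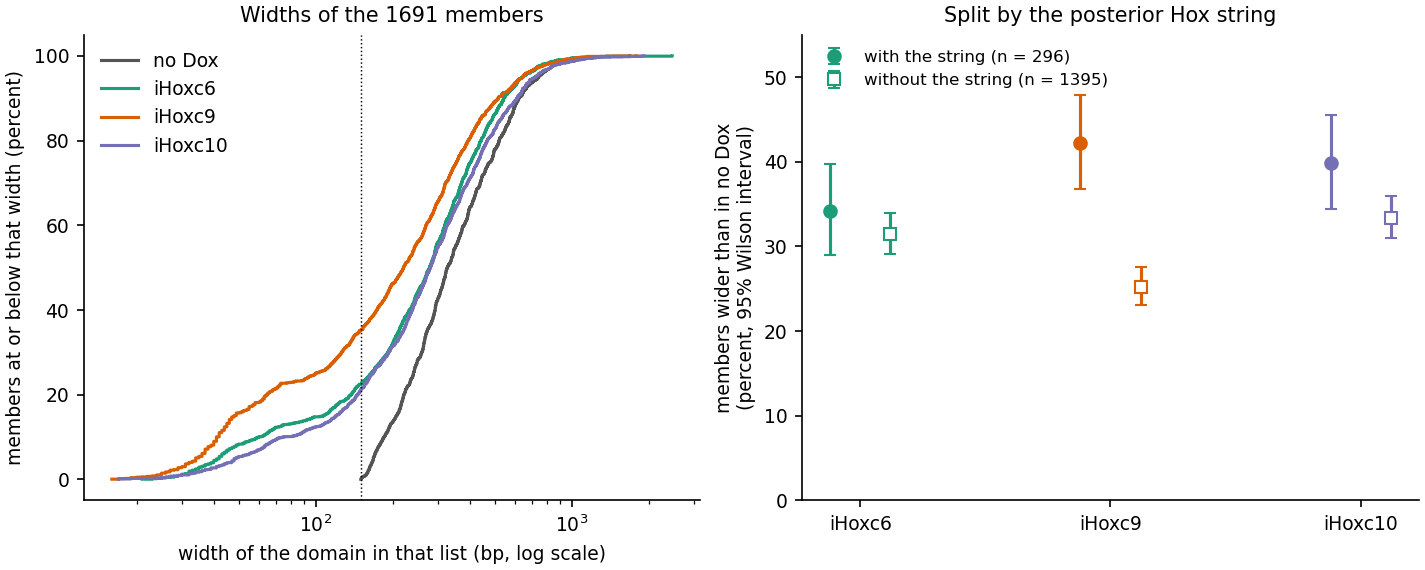
Left, cumulative percent of the 1691 members by their width in each day 4 list, on a log axis, with the 150 bp minimum of the rule dotted. Right, percent of members that were wider in an induced list than in no Dox, with and without the posterior Hox string, with 95% Wilson intervals. In iHoxc9 the shares are 42.2% with the string and 25.2% without.

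Members were nearly all distal. A TSS of a protein-coding gene lay within 1 kb of 45 members (2.66%, 1.99 to 3.54), against 4.96% (4.41 to 5.57) of the domains opened by day 2 and held by all day 4 lists, 9.29% (8.14 to 10.6) of new domains in no induced list and 31.7% of all no Dox domains. Introns held 755 members (44.6%), intergenic sequence 860 (50.9%), coding exons 12 and UTRs 19. The median distance to a TSS was 58.3 kb, and 637 members (37.7%, 35.4 to 40.005) lay over 100 kb away. Domains opened by day 2 and held by all day 4 lists were as far from genes, with a median of 57.0 kb and 37.0% (35.7 to 38.2) over 100 kb away. The median distance from a member to the nearest EB or progenitor domain was 4647 bp, and 346 members (20.5%) had one within 1 kb. Members mostly stood alone: 1551 had no other member within 12500 bp, and 66 runs of 2 or more members held the other 140. On chromosome X 13 of 542 domains over 1 kb from a TSS were members (2.40%, 1.41 to 4.06), and on the autosomes the share ran from 3.46% on chromosome 19 to 7.10% on chromosome 5, beside 5.35% over all no Dox domains over 1 kb from a TSS. Chromosome Y had none of 36 domains, which allows up to 9.64% by the Wilson interval.

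Genes of neuronal structure had the largest share of members of the 17 gene lists examined, a rank that did not hold under 2 of 7 alternatives. With a minimum width of 300 bp motor neuron genes had 7.61% and neuronal structure genes 7.21%, beside 3.26% of all no Dox domains of that width. With at least 50% of the no Dox domain covered, ion channel and receptor genes had 3.70%, retinoic acid genes 3.23% and Hox cofactor genes 3.08%. Neuronal structure genes then had 2.84%, beside 1.42% of all no Dox domains. A member was given to the protein-coding gene with the nearest TSS, and 1315 of 21829 such genes (6.02%) had at least 1. Of the 50 genes of neuronal structure (cytoskeleton, neuronal RNA-binding proteins and adhesion molecules) 21 had a member, and 38 of their 457 no Dox domains were members (8.32%, 6.12 to 11.2), against 3.75% of all. Over 1 kb from a TSS it was 36 of 368 (9.78%, 7.15 to 13.2), beside 5.35%. Ank3, whose product ankyrin-G anchors channels at the axon initial segment, had 5 members of 20 domains. Celf2, which encodes a neuronal splicing regulator, had 5 of 25. Single members lay nearest Tubb3, Map2, Dcx, Nefl and Nefm, which encode neuronal tubulin, microtubule-associated proteins and neurofilament subunits.

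Among the 20 motor neuron genes, 7 had a member, and 9 of their 155 no Dox domains were members (5.81%, 3.08 to 10.7), an interval that includes the 3.75% of all genes. Isl1, a LIM homeodomain factor that specifies motor neurons, had 1 member of 12 domains, at chr13:115948213-115948846, 361 kb from the TSS in intergenic sequence. It measured 634 bp in no Dox, 598 bp in iHoxc6, 574 bp in iHoxc9 and 594 bp in iHoxc10, so it kept nearly the same width in all 4 lists. Lhx3, the LIM factor that acts with ISL1, had 2 members of 6 domains. The wider, at chr2:26175158-26175866 and 30.7 kb from the TSS, measured 709, 487, 469 and 560 bp in the same order of lists. The narrower, at chr2:26190532-26190720, measured 189, 56, 289 and 512 bp, and was thus widest in iHoxc10. Foxp1, which marks limb-level motor neuron columns, had 2 intronic members of 15 domains. That at chr6:99467138-99467551 measured 414, 360, 398 and 405 bp, and that at chr6:99189880-99190504 measured 625, 227, 272 and 1019 bp. The gene for the related LIM factor Lhx4 had a member over its TSS, of 795 bp in no Dox and 541, 224 and 335 bp in the induced lists. Chat and Slc5a7, which encode the enzyme and the choline transporter of acetylcholine synthesis, had 1 member each. The Chat member measured 290 bp in no Dox and 35, 34 and 224 bp in the induced lists, so 2 of its overlaps were narrow. Mecom, a zinc finger factor gene, had 1, of 766 bp in no Dox and 445, 728 and 514 bp in the induced lists. No member was given to the 13 other genes.

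Neuronal transcription factor genes had 23 members among 370 domains (6.22%, 4.18 to 9.15), at 17 of 35 genes. Over 1 kb from a TSS the share was 21 of 318 (6.60%, 4.36 to 9.88), an interval that includes 5.35%. Pou3f3, a POU homeodomain gene of neuronal differentiation, had 4 members of 29 domains, all 222 to 438 kb from its TSS. The widest of them, at chr1:42472264-42473344, measured 1081, 992, 1011 and 1118 bp in no Dox, iHoxc6, iHoxc9 and iHoxc10, while the other 3 were 374 bp or less in no Dox and as narrow as 29 bp in iHoxc6. Ebf3, an EBF factor gene, had 2 intronic members of 17 domains, and Ebf1 and Ebf2 had 1 each. Myt1l, a zinc finger gene that represses non-neuronal genes, had 2 members of 19 domains, and Bcl11a had 2 of 19. The related Myt1 had a member over its TSS at chr2:181766701-181767436, of 736, 728, 766 and 667 bp, the widest in its narrowest list of the 16 members with a TSS inside. Of the 30 proneural and Notch genes 4 had a member, 1 each, with Hes1, Jag1 and Notch1 among them, and 4 of their 156 domains were members (2.56%, 1.00 to 6.41), an interval that includes 3.75%.

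The intervals of the other lists included the share over all genes, 3.75%. Members are again placed at the gene of the nearest TSS, which can be far away. Those of Klf4 and Rpl10l lay 556 and 377 kb from it, and 1 of Nrp2 lay 512 kb away, in an intron of another gene. Axon guidance genes had 27 members of 548 domains (4.93%, 3.41 to 7.07), with 4 at Epha7, an ephrin receptor gene, and 3 at Nrp2, a semaphorin receptor gene. Ion channel and receptor genes had 17 of 297 (5.72%, 3.60 to 8.97), with 2 at Grik3, a kainate receptor gene. Spinal interneuron genes had 8 of 182, with 1 each at Gata3 and En1, and synapse genes had 8 of 278, with 2 at Nrxn3. Neural progenitor genes had 8 of 286, 3 of them at Gas1 and 2 at Sox2. Retinoic acid genes had 6 of 124, with 1 at Cyp26b1, which encodes an RA-degrading enzyme. Hox cofactor genes had 6 of 130, with 2 each at Meis1 and Pknox2. Neural crest and glia genes had 4 of 118, with 1 each at Msx1 and Phox2a, mesendoderm genes 3 of 88, with 1 each at Sox7 and Eomes, and pluripotency genes 2 of 80, at Klf4 and Tbx3. Cell cycle genes had 1 of 111, at Cdkn1c, an inhibitor of cyclin-dependent kinases, with the member in an intron of Kcnq1. Ribosomal protein genes had 4 of 138, with 2 at Rpl38 and 1 at Rpl10l. Hox genes had 1 of 98, in an intron of Hoxb3 at chr11:96336714-96336970, where it measured 257 bp in no Dox and 333, 267 and 364 bp in iHoxc6, iHoxc9 and iHoxc10. The HoxA, HoxC and HoxD clusters had no member, so no member lay on an exon that the transgenes carry.

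**Figure D5:**
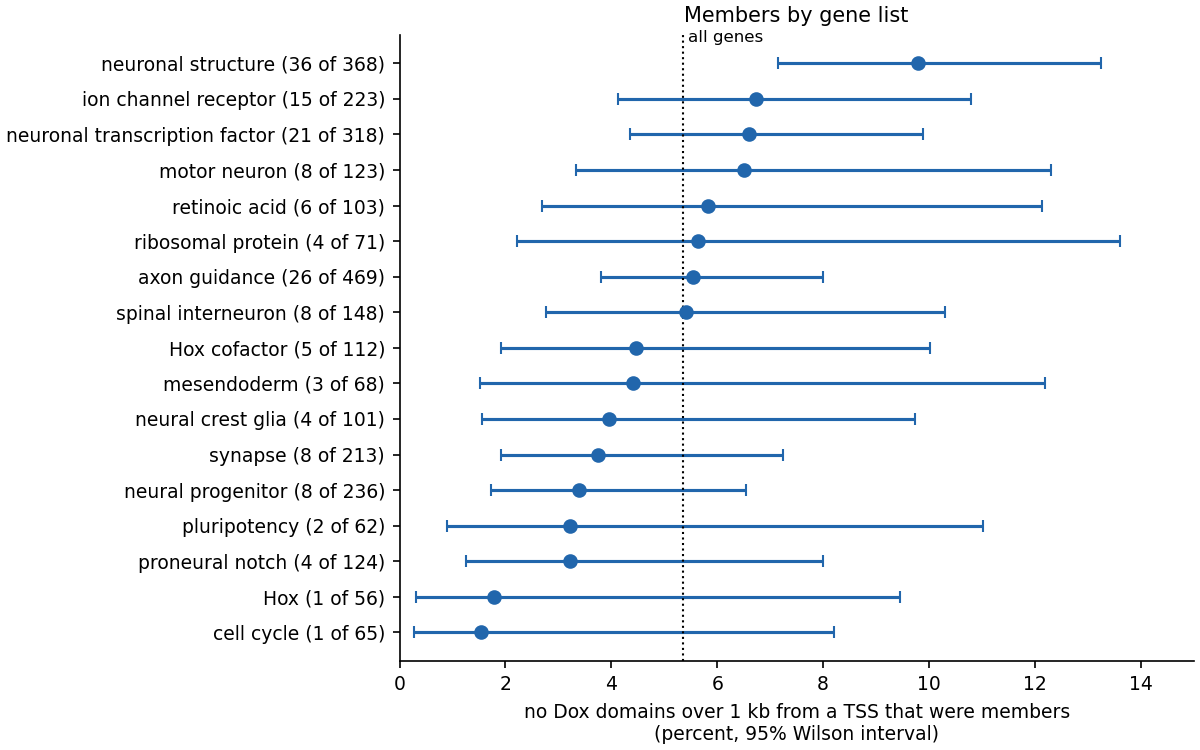
Percent of the no Dox domains over 1 kb from a TSS that were members, for each gene list, with the number of members and domains in brackets and 95% Wilson intervals. The dotted line marks 5.35%, the share over all genes. The interval of neuronal structure (7.15 to 13.2) lies above it, and those of the 16 other lists include it.

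Of all genes, 7 had 5 members or more, of which Ank3 and Celf2 were on a list, and 17 had 4, Pou3f3 among them. Pank3, a gene of coenzyme A synthesis, was the nearest TSS to 7 members of its 26 domains, but all 7 lay 148 to 296 kb from it within introns of Slit3, which encodes an axon guidance ligand. Auts2, a gene of neuronal development, had 6 members of 34 domains, all in its introns, 2 of which lay under 1 domain of each induced list (743 bp in iHoxc6, 896 bp in iHoxc9 and 1038 bp in iHoxc10). Zfp608 had 6 of 61, and Asap1 and Tenm4 had 5 each, of 19 and 47 domains. Of the genes with 4 members, Prdm2, Epha7, Arrdc3, Sash1 and Fry had the largest summed width, and Epha7 is on the axon guidance list. The 4 members of Epha7 lay 305 kb to 1186 kb from its TSS. That at chr4:29479702-29480976 measured 1275 bp in no Dox and 436, 1007 and 1056 bp in iHoxc6, iHoxc9 and iHoxc10, and the other 3 were wider in iHoxc9 and iHoxc10 than in no Dox. Of all members 40.3% lay inside the gene of their nearest TSS and 8.10% inside another gene only.

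The 8 members that were widest in their narrowest list lay, with 1 exception, far from a TSS. They were given to Pou3f3, 1700025G04Rik, Zfp703 (which had 2 of them), Myt1, Gm4951, Palld and Dock4. The pair at Zfp703, a zinc finger gene, lay at chr8:26747443-26748366 and chr8:26770360-26771240, more than 200 kb from the TSS. The first measured 924, 991, 827 and 1408 bp in no Dox, iHoxc6, iHoxc9 and iHoxc10, and the second 881, 833, 871 and 710 bp. That of 1700025G04Rik, at chr1:152164683-152166043, measured 1361, 998, 1148 and 942 bp. That of Palld measured 640, 618, 1014 and 644 bp and that of Dock4 609, 768, 689 and 714 bp, each in an intron of its gene. None of the 8 was under 609 bp in any day 4 list. Of the members with a TSS inside, those of Tns1, Hivep3, Gm7271, Slc25a18, Zmiz2 and Angpt2 were also among the 8 widest in their narrowest list, and their narrowest widths lay between 112 and 331 bp.

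Domains at promoters gave a limited check of the cell types. Of 6 motor neuron markers all had a domain within 1 kb of a TSS in no Dox, iHoxc6 and iHoxc10 and 5 in iHoxc9, but EB and progenitor lists also had all 6. All 5 ventral progenitor markers had one in every list. Of 5 neuron markers 5 had one in progenitors, no Dox and iHoxc6, and 4 in EB, iHoxc9 and iHoxc10. Of 6 spinal interneuron markers 6 had one in EB, progenitors and no Dox, 5 in iHoxc6 and iHoxc10 and 4 in iHoxc9. Of 5 pluripotency markers 5 had one in EB, 3 in progenitors and 2 in each day 4 list, where Pou5f1 and Nanog had none. Of 6 mesoderm and endoderm markers 6 had one in EB and in progenitors and 5 in each day 4 list. Of 4 neural crest and glia markers 2 had one in no Dox, with Sox10 the additional one, and 1 in each other list. Gfap had none in any list. The part of other cell types in the choice of members was not tested.

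The thresholds of the rule passed through a continuous range of values. Domains of 140 to 149 bp that met every other step numbered 60, with median widths of 148, 161 and 164.5 bp in iHoxc6, iHoxc9 and iHoxc10, and members of 150 to 159 bp numbered 27, with medians of 167, 175 and 211 bp. The smallest overlap between a member and an induced list was 4 bp, and 453 members (26.8%) had an overlap of 50 bp or less with at least 1 list. An EB or progenitor domain lay within 100 bp of 42 members. Absence from a list says only that no domain was called there.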

How the data were processed

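The authors mapped paired-end ATAC-seq reads to mm10 (GRCm38) and called domains with DomainFinder, and the submitters' processing notes name Bowtie2 2.2.2 and Picard 2.8.2. The deposited lists give start and end coordinates in bp per group, from both samples together, with no height, read count or p-value. The no Dox list has constant columns that the others lack, its name carries a p threshold where theirs carry none, and it is named for a different day than GEO's label, which was followed here. Its calling may thus differ from that of the other lists, which bears on every width and every count of new domains set against them. Other calling settings are not given in the sources used here. Starts were read as in BED and are printed counting from 1.

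A narrow or missing domain can reflect depth or the calling threshold as well as chromatin, and neither could be separated here. The width in an induced list is that of its widest overlapping domain. TSS, genes and exons came from GENCODE M21 and sequence from GRCm38.p6 of RefSeq. Strings were searched on both strands in the central 150 bp of the no Dox domain. Shares have Wilson and differences Newcombe 95% intervals. No test across samples was possible. The members, gene lists and strings were chosen with earlier results of these data known.

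Genes were named by a rule: the 12 with most members, motor neuron, neuronal factor and proneural or Notch genes with 2 or more, the 8 widest members with a TSS inside, the 8 widest members in their narrowest list, and the 2 leading genes of each other list. Some items that the rule picks are not reported here. Other members of the motor neuron, proneural and neuronal factor lists, and Tubb3, Map2, Dcx, Nefl, Nefm, Ebf1, Ebf2, Kcnq1 and Slit3, were named after their values were seen. The functions for overlaps, membership, nearest TSS and string search were tested on simulated data, and those for the Wilson and Newcombe intervals were not. Python 3.11.15, NumPy 2.4.6, SciPy 1.17.1 and Matplotlib 3.10.9 were used.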

Additional observations from a re-analysis of the deposited data

How the results depend on the processing

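The number of members was 973 with a minimum width of 300 bp, 375 with 500 bp, 639 when at least 50% of the no Dox domain had to be covered in each induced list, 2561 without the iHoxc9 requirement and 811 with 150 bp in all 4 lists, and stayed within 1.5 times of 1691 in the 9 other settings. The percent of new domains held by all 3 was 6.44 with no minimum width, 13.0 at 50 bp, 38.8 at 300 bp, 54.7 at 500 bp, 8.66 with 50% covered and 24.9 with no earlier domain within 500 bp. The percent of members at promoters was 9.93 for a TSS within 5 kb, 0.95 for a TSS inside, 1.25 with 50% covered, 1.65 with no earlier domain within 500 bp and 1.85 with 150 bp in all 4 lists.

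A window of 100 or 200 bp gave CAGCTG in 15.9% or 28.0% of members, CAGATG in 17.3% or 28.4%, ATTGATT in 6.33% or 11.1%, TAATGA in 11.8% or 21.3%, TTTATG in 12.2% or 21.999%, CCCNNGGGA in 4.55% or 8.34% and ACAANG in 20.1% or 38.7%. These shares move by the window's construction. The ratio of TTTATG in members to other domains over 1 kb from a TSS was 2.27 and 2.16 in the 2 windows. Members of 300 bp or wider had CAGCTG in 19.8%, CAGATG in 20.7%, ATTGATT in 7.09% and CCCNNGGGA in 4.83%. With 50% covered, CAGCTG was in 25.2%, CAGATG in 26.1%, TAATGA in 20.3%, TTTATG in 21.6% and CCCNNGGGA in 10.6%, and with 150 bp in all 4 lists TTTATG was in 20.1% and CCCNNGGGA in 8.63%. Apart from the windows, the cause of these shifts was not tested. The difference in TTTATG between new domains held and not held by iHoxc9 was 5.52 points at 100 bp, 10.1 points at 200 bp and 12.02 points for iHoxc9 domains of 150 bp or wider.

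With 50% covered, 2.58% of motor neuron, 2.16% of neuronal factor and 2.84% of neuronal structure domains were members, beside 1.42% of all no Dox domains, and ion channel and receptor (3.70%), retinoic acid (3.23%) and Hox cofactor genes (3.08%) ranked above all of these. Neuronal factor genes had 3.88% when only TSS within 100 kb counted, a setting for which the share over all domains was not computed. Of 222 alternative values of the other results, 165 stayed within the interval of the main value, 26 were higher and 31 lower. The alternatives on 150 bp in all 4 lists, on chromosomes X and Y, on domains over 1 kb from a TSS for gene lists and on the iHoxc9 difference were chosen after seeing the data. Leaving out a replicate was not possible, because each list was made from both samples. No paired analysis was possible because each list pools its samples. List depth limits how narrow an overlap can be read.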
